A study of Mus musculus with 16 samples.

Results

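The genes of the cytosolic ribosomal proteins were followed across mouse forebrain neuron cultures that carried an empty lentiviral vector or one of 3 hairpin vectors. Members were the protein-coding genes whose symbol begins with Rpl or Rps and a digit, together with Rpsa, Rplp0, Rplp1 and Rplp2. The S6 kinases (Rps6k symbols) and the 289 pseudogene rows with -ps in their symbol were left out. Of 55335 genes in the count table, 86 matched by symbol and 84 had at least 10 counts in at least 4 libraries. The other 2, Rpl10l and Rpl39l, had at most 5 counts in any library. The 84 comprised 31 genes of the small (40S) subunit, 43 of the large (60S) subunit, the 3 stalk genes Rplp0, Rplp1 and Rplp2, and 7 paralogs or near-namesakes (Rps27l, Rpl22l1, Rpl3l, Rpl36al, Rpl7l1, Rps27rt and Rps19bp1). Rps19bp1 encodes a partner of Rps19 and not a ribosomal protein, and it entered by its symbol.

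All 16 libraries were total RNA, depleted of ribosomal RNA, from perinatal primary cultures of forebrain neurons transduced with lentivirus. The 4 groups of 4 libraries received an empty vector, a short hairpin RNA (here the unmutated hairpin), or the same hairpin carrying 2 or 5 point mutations (named below by their number of mutations). Such a hairpin is cut by the microRNA machinery of the cell into a short guide, which lowers the messengers it can pair with. The labels named neither the hairpin's target nor the promoter, mouse strain or days in culture, and they did not say whether replicates were separate cultures, so p-values measure the spread between these libraries, which may be technical. The series title asks whether hairpins alter microRNAs and the transcriptome apart from their target, and the mutated hairpins are its comparison for that question.

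Ribosomal proteins and ribosomal RNA assemble in the nucleolus into a small subunit, which reads the messenger RNA, and a large subunit, which forms peptide bonds. The subunits need their proteins in near-equal amounts, and messengers for them usually begin with a run of pyrimidines at the cap (a TOP motif, terminal oligopyrimidine), through which mTOR and the La-related protein Larp1 control their translation and stability. In neurons, ribosomal protein messengers are also found in axons and dendrites. Several free ribosomal proteins, Rpl5 and Rpl11 among them, can bind Mdm2, the ligase that degrades p53.

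The starts of 8 genes on which the results turn are shown first, to set those that moved in opposite directions side by side. They are RefSeq starts on GRCm38.p6, from 20 bases before the annotated start to 20 after it, with the longest run of a C followed by at least 5 more C or T in capitals. Rpl15 (chr14:18270967-18271006, minus strand) and Rps10 (chr17:27635225-27635264, minus strand) were higher with the 2-mutation hairpin, Rpl35 (chr2:39005112-39005151, minus strand) and Rps25 (chr9:44407694-44407733, plus strand) were lower, and Rpsa (chr9:120127746-120127785, plus strand) and Rps2 (chr17:24720043-24720082, plus strand) were higher. Rpl22 (chr4:152325706-152325745, plus strand) and its paralog Rpl22l1 (chr3:28805488-28805527, plus strand) moved in opposite directions with the unmutated hairpin.
Rpl15: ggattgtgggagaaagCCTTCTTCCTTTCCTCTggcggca
Rps10: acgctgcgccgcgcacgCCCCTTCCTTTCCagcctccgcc
Rpl35: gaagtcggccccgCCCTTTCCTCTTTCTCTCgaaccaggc
Rps25: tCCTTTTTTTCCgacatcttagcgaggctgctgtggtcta
Rpsa: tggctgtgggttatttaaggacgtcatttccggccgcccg
Rps2: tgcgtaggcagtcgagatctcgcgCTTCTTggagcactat
Rpl22l1: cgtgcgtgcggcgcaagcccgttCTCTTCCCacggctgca
Rpl22: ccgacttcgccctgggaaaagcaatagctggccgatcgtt

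Rpl35 and Rpl15 had runs of 18 and 17 bases beside the start, and the windows of Rpsa and Rpl22 held no such run. Of the 84 members 64 had a start in the RefSeq table, and 41 of the 64 (64.1%) had a run within the 40 bases, searched on the transcribed strand. The share was 34.4% of 11266 protein-coding genes tested and 36.8% of 68 mitochondrial ribosomal protein genes. Among the 57 subunit and stalk genes with a start, the 38 with a run had a median log2 fold change of 0.22 with the 2-mutation hairpin (range -0.80 to 0.51) and the 19 without had 0.18 (-0.25 to 0.68). The corresponding medians were -0.09 and -0.06 with the 5-mutation hairpin and 0.02 and 0.03 with the unmutated hairpin. The ranges of the genes with and without a run overlapped in each comparison. Runs began from 20 bases before the annotated start (Rpl5) to base 15 after it (Rpl11). The annotated start need not be the cap, so this split need not separate TOP messengers from others.

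Total counts ran from 33795369 to 49824569 per library, of which 356016 to 632482 fell on the 84 members. Their share of the counts was 1.09 ± 0.07% in the empty vector libraries, 1.16 ± 0.10% in those of the unmutated, 1.19 ± 0.07% of the 2-mutation and 1.09 ± 0.11% of the 5-mutation hairpin (SD, n = 4 each), and the groups overlapped. Members moved together between libraries of the same group. In replicate 2 of the 5-mutation group 83 of the 84 lay below their group mean, by a median of -0.25 on the log2 scale, and in replicate 3 of that group 83 lay above it, by a median of 0.18. Replicate 1 stood above its group mean for 81, 83, 82 and 82 members in the empty vector, unmutated, 2-mutation and 5-mutation groups. The slope of log2 CPM (the count scaled to the library total, with TMM) on log2 exonic length over protein-coding genes was 0.0375 in replicate 2 and -0.0338 in replicate 3 of the 5-mutation group, against 0.0136 to 0.0514 with the empty vector, -0.0363 to 0.023 with the unmutated and -0.0423 to -0.0183 with the 2-mutation hairpin. With the trend in exonic length taken out of each library by an offset, the counts of members called are given below where they moved by over 1.5 times.

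**Figure D1:**
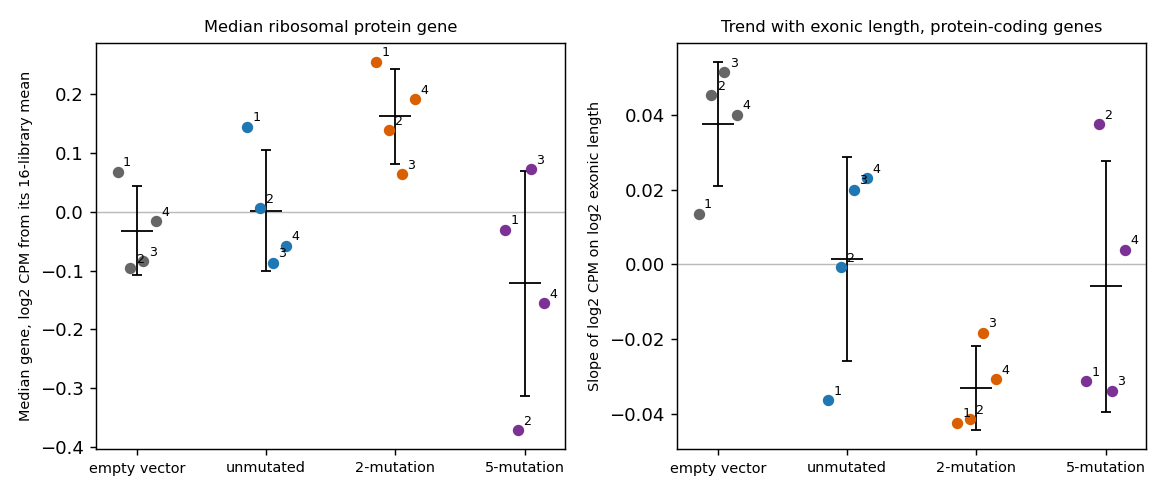
Left, the median over the 84 ribosomal protein genes of log2 CPM from each gene's mean over the 16 libraries; right, the slope of log2 CPM on log2 exonic length over protein-coding genes. Points are libraries with their replicate number, and bars show the group mean ± SD (n = 4). Replicate 2 of the 5-mutation group is the lowest on the left (-0.37), and replicate 1 is the highest in 3 of the 4 groups.

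Levels per exonic length spanned a wide range with the empty vector. Exonic length joins all annotated exons of a gene, from 374 bases in Rps27rt to 6270 in Rps15a and 499 in Rplp1. The order of genes therefore also rests on how much exon is annotated. The highest were the stalk protein gene Rplp1 at 653 ± 41.0 FPKM (CPM per kilobase of exon, SD, n = 4), Rps2 at 322 ± 24.4 and Rpl41, the shortest protein of the large subunit, at 259.6 ± 20. The lowest were Rpl3l at 0.121 ± 0.0783, a muscle paralog of Rpl3, Rpl36al at 0.506 ± 0.195 and Rpl24 at 0.599 ± 0.114 FPKM. Rpl24, Rpl36al and Rps10 shared 47.0%, 24.5% and 20.6% of their exonic bases with exons of another gene on the same strand (Gm28037, Gm49383 and RPS10-NUDT3), and those genes were listed at or near 0 in every group. Whether reads in such shared exons were counted is not given in the sources used here, so the low values of these genes cover an unknown part of their messenger. Ribosomal protein genes also have many processed pseudogenes: a median of 34.8% of the 50-base stretches of a member's coding transcripts occurred in transcripts of other annotated genes, and in 23 members over 50%. Rps27rt, a retrogene copy of Rps27, had 91.1% and Rpl36a 85.5%, so their counts may be split with those of their copies.

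Against the empty vector, few ribosomal protein genes passed the test with the unmutated hairpin, 39 rose with the 2-mutation hairpin, and more fell than rose with the 5-mutation hairpin. The largest single changes were a rise of Rpsa and falls of Rpl35, Rpl3 and Rps25, all with the 2-mutation hairpin. A gene was called at a Benjamini-Hochberg adjusted p below 0.05 in edgeR's quasi-likelihood test over all 19479 genes tested, and every member was tested. With the 2-mutation hairpin 39 of 84 were higher and 6 lower, where 32.5% of all genes tested were higher and 30.8% lower, and the median log2 fold change was 0.20 (quartiles 0.06 and 0.30) against -0.01 over all genes. Of the protein-coding genes tested, 40.01% were higher and 32.4% lower, with a median of 0.07, so the members' 46.4% higher was closer to that share. The unmutated hairpin had 6 higher and 2 lower, where 20.8% and 19.5% of all genes were, with a median of 0.03 against 0.01 over all genes. For the 5-mutation hairpin 6 were higher and 14 lower, where 28.4% and 26.5% of all genes were, with a median of -0.09 against 0.03. These 3 comparisons share the empty vector libraries. Changes were small: 6, 0 and 2 members exceeded 0.5 in absolute log2 fold change with the 2-mutation, unmutated and 5-mutation hairpin, where 8312, 4341 and 6582 of all genes did.

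**Figure D2:**
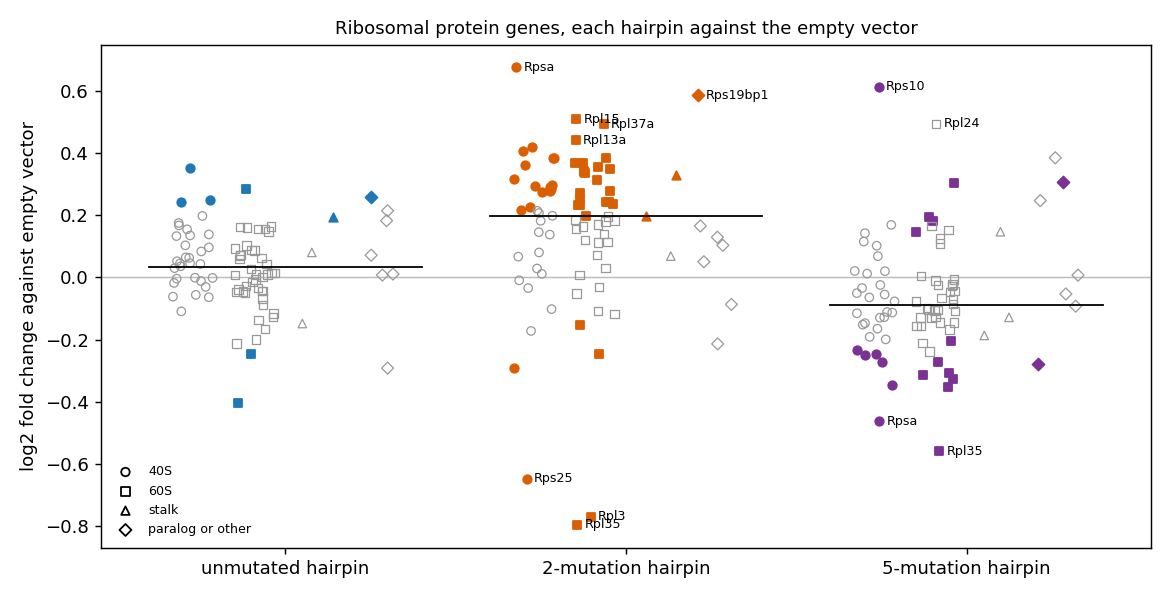
Log2 fold change of each of the 84 genes against the empty vector (y axis) for the 3 hairpins (x axis), by role. Filled symbols passed adjusted p of 0.05, open ones did not, black lines are the medians (0.03, 0.20 and -0.09), and genes beyond 0.44 are named. Rpsa lies at the top with the 2-mutation hairpin and near the bottom with the 5-mutation hairpin.

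The counts depended on single libraries to different degrees. Without replicate 2 of the 5-mutation group, the 5-mutation hairpin had 16 higher and 10 lower with a median of -0.01, and without replicate 3 it had 4 higher and 33 lower. For the unmutated hairpin the 6 higher became 1 or 2 without replicate 2, 3 or 4 of the empty vector or replicate 1 or 2 of the unmutated group, 15 without replicate 2 of the 5-mutation group, and 2 with the length offset. The 2 lower became 5 or 6 without replicate 1 of the unmutated or replicate 2 or 3 of the 5-mutation group, and with the replicate number as a block there were 10 higher and 5 lower. With libraries scaled so that the median ribosomal protein gene was level, the 2-mutation hairpin had 14 higher and 18 lower, the 5-mutation hairpin 17 and 12, and the unmutated hairpin 4 and 7. That scaling fixes a near balance of higher and lower members by construction, was chosen after the data were seen and placed the median of all genes at -0.21, 0.13 and -0.02 in these comparisons. Fewer cells of a type and less RNA per cell cannot be told apart in bulk RNA. Markers of neural progenitors summed to 74.3 to 115 CPM with the 2-mutation hairpin, 35.1 to 42.7 with the empty vector, 43.5 to 53.4 with the unmutated and 19.4 to 36.8 with the 5-mutation hairpin, with all 5 markers detected in each group. Inhibitory neuron markers (3 of 3 detected) summed to 466 to 539 CPM with the empty vector and 114 to 262 with the hairpins. Excitatory neuron markers (4 of 4) summed to 1513 to 1686 with the empty vector. They summed to 1352 to 1460 with the unmutated and 2-mutation hairpins and 709 to 789 with the 5-mutation hairpin. Astrocyte markers (6 of 6) summed to 881 to 1079 CPM with the empty vector and 452 to 648 with the 5-mutation hairpin, and were 663 to 964 with the others. Oligodendrocyte lineage markers (7 of 7) summed to 50.5 to 61.6 with the empty vector, 39.5 to 45.1 with the 2-mutation hairpin and 76.7 to 95.6 with the others, and general neuron markers (5 of 5) to 3917 to 4187 with the unmutated hairpin and 4338 to 4733 elsewhere. Fibroblast and pericyte markers (5 of 5) reached 119 CPM in replicate 3 of the 5-mutation group and 18.9 to 39.3 elsewhere, while C1qa of microglia was at 0 in the unmutated and 2-mutation groups and Cldn5 of endothelium in the 2-mutation group. Sums weigh the most abundant marker, and single markers of a type could differ in direction. With the 5-mutation hairpin, log2 fold changes ran from -1.36 to 1.69 in the oligodendrocyte lineage (1 called higher, 2 lower). They ran from -2.90 to 1.62 in excitatory (1 and 2), -2.26 to 0.20 in general neuron (1 and 2) and -0.85 to 1.60 in progenitor markers (2 and 2). In fibroblast and pericyte markers they ran from -1.74 to 2.92 (3 and 1). With the 2-mutation hairpin excitatory markers ran from -1.07 to 2.38 (2 and 1). The 2 microglia markers tested were lower with it (-2.22 and -1.60), where the 6 microglia markers summed to at most 1.31 CPM. All 3 inhibitory markers fell with each hairpin. The part of these cells in the ribosomal protein results was not tested.

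**Figure D3:**
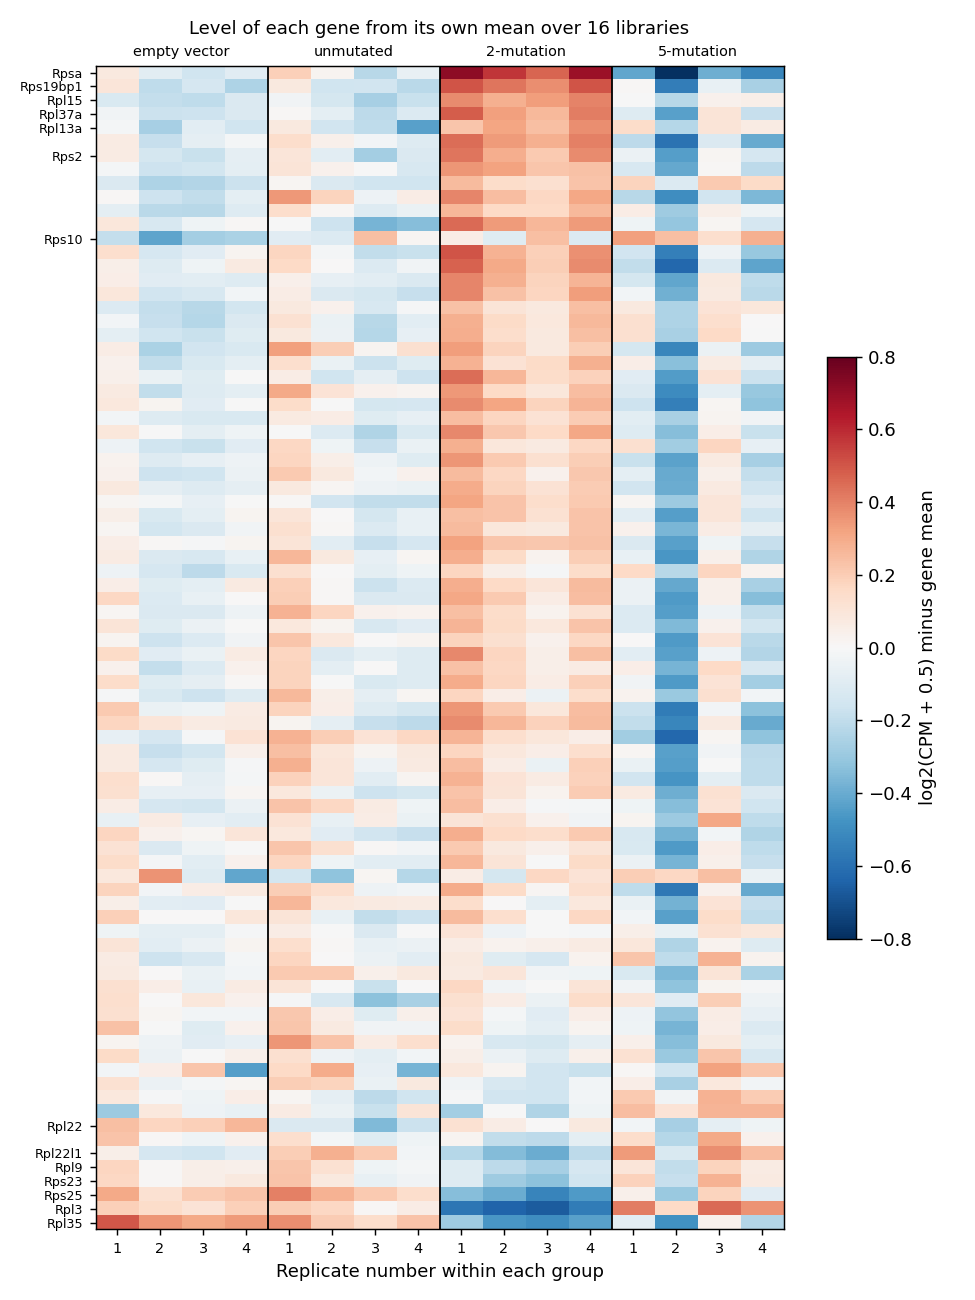
Level of each of the 84 genes (rows, ordered by fold change with the 2-mutation hairpin, some of them labelled) in each library (columns, by group and replicate number), as log2(CPM + 0.5) minus the gene's mean over the 16 libraries. Most rows are red in the 2-mutation columns and blue in replicate 2 of the 5-mutation group; the bottom rows (Rps25, Rpl3, Rpl35) are blue in the 2-mutation columns.

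In the small subunit 15 of 31 genes rose and 2 fell with the 2-mutation hairpin, 1 rose and 6 fell with the 5-mutation hairpin, and the 3 that passed with the unmutated hairpin rose. With the 5-mutation hairpin these are 3.23% higher and 19.4% lower, both below the 28.4% and 26.5% of all genes. With the 2-mutation hairpin 48.4% higher and 6.45% lower stand beside 40.01% and 32.4% of protein-coding genes. With the unmutated hairpin 9.68% higher and none lower stand beside 20.8% and 19.5% of all genes. Rpsa (the laminin receptor protein of the small subunit; ENSMUSG00000032518.6, chr9:120127689-120132369) had the widest swing. Its CPM were 515, 459, 437 and 459 in the empty vector libraries, 558, 494, 418 and 469 in those of the unmutated, 803, 726, 674 and 784 of the 2-mutation and 366, 279, 373 and 339.8 of the 5-mutation hairpin. All 2-mutation libraries lay above, and all 5-mutation libraries below, every other library. The log2 fold change was 0.68 ± 0.10 SE, adjusted p = 1.11e-05 with the 2-mutation hairpin and -0.46 ± 0.10 SE, adjusted p = 6.09e-04 with the 5-mutation hairpin. With the unmutated hairpin it was 0.05 ± 0.10 SE, adjusted p = 0.708, so a difference was not detected.

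Rps25, a small subunit protein used by some viral and cellular messengers that start translation internally, went the other way with the 2-mutation hairpin (ENSMUSG00000009927.9, chr9:44407139-44410427). Its CPM were 111, 97.5, 103 and 105 in the empty vector libraries, 118, 109, 104 and 98.9 in those of the unmutated, 70.7, 67.9, 61.8 and 65.2 of the 2-mutation and 92.1, 72.7, 101 and 84.2 of the 5-mutation hairpin. The 2-mutation libraries lay below all others, and replicate 3 of the 5-mutation group overlapped the empty vector. The log2 fold change was -0.65 ± 0.08 SE, adjusted p = 1.28e-06 with the 2-mutation and -0.25 ± 0.08 SE, adjusted p = 0.0134 with the 5-mutation hairpin. Rps23, a protein of the decoding centre, was the other small subunit gene that fell with the 2-mutation hairpin (-0.29 ± 0.09 SE, adjusted p = 0.00627). Rps2 (0.41) was among those that rose with it. With the 5-mutation hairpin Rps29 fell (-0.35), while Rps2 did not pass the test (-0.06, adjusted p = 0.584).

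Rps10, near the entry channel for messenger RNA, rose in all 3 comparisons but at a few CPM: 2.78, 2.29, 2.61 and 2.64 in the empty vector libraries, 3.02, 2.97, 3.92 and 3.28 in those of the unmutated, 3.39, 3.0, 3.93 and 2.96 of the 2-mutation and 4.21, 3.92, 3.61 and 4.05 of the 5-mutation hairpin. Every hairpin library lay above every empty vector library. The log2 fold changes were 0.35 ± 0.13 SE, adjusted p = 0.031, 0.36 ± 0.13 SE, adjusted p = 0.0159 and 0.61 ± 0.13 SE, adjusted p = 2.41e-04. The first 2 lost the threshold without the filter on low counts and without some single libraries, and reads in the exons it shares with RPS10-NUDT3 may not be among these counts. With the unmutated hairpin Rps27a, a fusion of ubiquitin and a ribosomal protein, also rose (0.24 ± 0.08 SE, adjusted p = 0.0148), and lost the threshold without replicate 1 of that group.

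**Figure D4:**
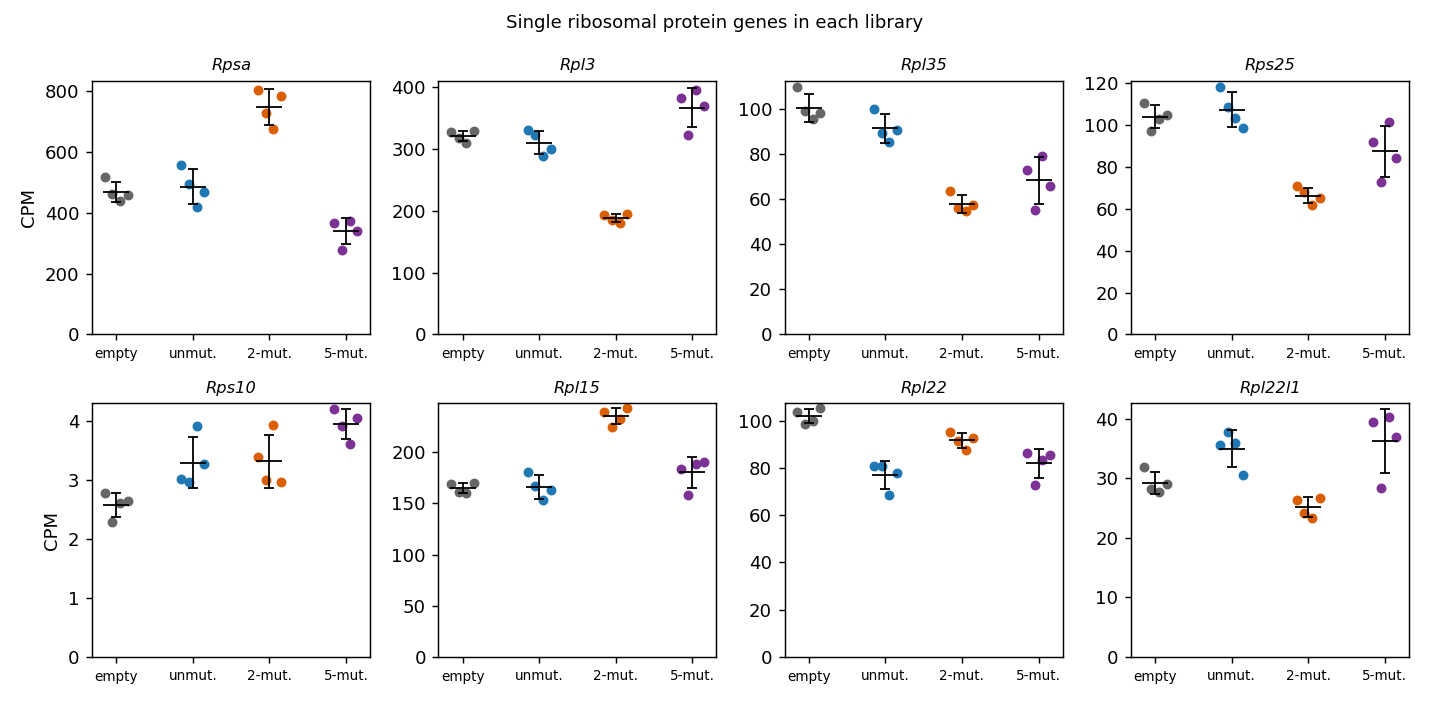
CPM of 8 genes in each library (points) by group, with the group mean ± SD (n = 4); each y axis starts at 0. Rpsa is highest and Rpl3 and Rps25 lowest in the 2-mutation libraries, and Rpl22 is highest in the empty vector libraries.

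In the large subunit 21 of 43 genes rose and 4 fell with the 2-mutation hairpin, 4 rose and 7 fell with the 5-mutation hairpin, and 1 rose and 2 fell with the unmutated hairpin. The shares with the 5-mutation hairpin, 9.30% higher and 16.3% lower, are below those of all genes. With the 2-mutation hairpin 48.8% higher and 9.30% lower stand beside 40.01% and 32.4% of protein-coding genes. With the unmutated hairpin 2.33% higher and 4.65% lower stand beside 20.8% and 19.5% of all genes. Rpl3, which lines the peptidyl transferase centre (ENSMUSG00000060036.14, chr15:80077791-80091868), had CPM of 328, 318, 309.8 and 328 in the empty vector libraries, 329.8, 323, 289 and 299.6 in those of the unmutated, 193, 184, 181 and 195 of the 2-mutation and 383, 322, 395 and 369 of the 5-mutation hairpin. The 2-mutation libraries lay below all others. Its log2 fold change was -0.77 ± 0.05 SE, adjusted p = 3.81e-11 with the 2-mutation and 0.19 ± 0.05 SE, adjusted p = 0.00423 with the 5-mutation hairpin, where replicate 2 overlapped the empty vector. Rpl35, at the exit of the nascent peptide tunnel (ENSMUSG00000062997.6, chr2:39001580-39005624), had CPM of 109.6, 98.9, 95.6 and 98.1 in the empty vector libraries, 100.2, 89.2, 85.3 and 90.9 in those of the unmutated, 63.6, 56.0, 54.6 and 57.3 of the 2-mutation and 73.1, 55.2, 79.3 and 65.8 of the 5-mutation hairpin. Both mutated hairpins lay below every empty vector and unmutated library. The log2 fold changes were -0.80 ± 0.09 SE, adjusted p = 3.36e-07 and -0.56 ± 0.09 SE, adjusted p = 2.94e-05, and with the unmutated hairpin -0.14 ± 0.09 SE, adjusted p = 0.226. Rpl9 also fell with the 2-mutation hairpin (-0.25 ± 0.07 SE, adjusted p = 0.0046).

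Rpl15 had the largest rise of the large subunit with the 2-mutation hairpin. Its CPM were 169, 162, 160.3 and 170.0 in the empty vector libraries, 181, 167, 153 and 163 in those of the unmutated, 239.6, 225, 233 and 243 of the 2-mutation and 184, 158, 189 and 191 of the 5-mutation hairpin, and the 2-mutation libraries lay above all others (log2 fold change 0.51 ± 0.05 SE, adjusted p = 3.59e-08). Rpl37a (0.49 ± 0.08 SE, adjusted p = 5.49e-05) and Rpl13a, known for holding back translation of inflammatory messengers when it leaves the ribosome (0.44 ± 0.10 SE, adjusted p = 7.23e-04), followed. Rpl10, needed for subunit joining, rose with the 2-mutation hairpin (0.38 ± 0.06 SE, adjusted p = 6.97e-06) and with the 5-mutation hairpin (0.30 ± 0.06 SE, adjusted p = 1.51e-04). Rpl7 (0.18 ± 0.07 SE, adjusted p = 0.0252) and Rpl5, a carrier of the 5S ribosomal RNA (0.14 ± 0.06 SE, adjusted p = 0.0466), rose with the 5-mutation hairpin, and both lost the threshold under several alternatives. Rpl38, linked to translation of Hox messengers in embryos (-0.35 ± 0.10 SE, adjusted p = 0.00501), and Rpl18 (-0.33 ± 0.09 SE, adjusted p = 0.00731) fell with it. Rpl18 rose with the 2-mutation hairpin (0.35, adjusted p = 0.00398). Rpl19 (0.29 ± 0.10 SE, adjusted p = 0.0242) rose and Rpl36a (-0.25 ± 0.07 SE, adjusted p = 0.00721) fell with the unmutated hairpin. The call of Rpl19 was lost without replicate 1 or 2 of the unmutated group and without replicate 2, 3 or 4 of the empty vector.

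The stalk recruits translation factors to the large subunit. Rplp0, its base, had CPM of 327, 291, 284 and 306 in the empty vector libraries, 361, 319, 284 and 312 in those of the unmutated, 404, 368, 351 and 396 of the 2-mutation and 362, 279.7, 363 and 332 of the 5-mutation hairpin, and rose with the 2-mutation hairpin (0.33 ± 0.08 SE, adjusted p = 0.00187). Rplp2 had CPM of 108, 99.2, 98.9 and 104 in the empty vector libraries, 130.2, 121, 109.7 and 109 in those of the unmutated, 127, 119, 109 and 117 of the 2-mutation and 99.5, 78.7, 104 and 93.5 of the 5-mutation hairpin. It rose with the unmutated (0.19 ± 0.07 SE, adjusted p = 0.0449) and the 2-mutation hairpin (0.20 ± 0.07 SE, adjusted p = 0.0258), both without overlap with the empty vector libraries and both lost without several single libraries or without Gm26917 and Gm42418, loci known to collect reads of ribosomal RNA. With the family scaled level the second was -0.0002. Rplp1 had CPM of 353, 310.4, 310.3 and 329.9 in the empty vector libraries, 332, 297, 271 and 276 in those of the unmutated, 370.0, 340.5, 309.7 and 347 of the 2-mutation and 305, 229, 343 and 269 of the 5-mutation hairpin, and all 4 groups overlapped. It did not pass the test with any hairpin (-0.15 ± 0.10, 0.07 ± 0.10 and -0.19 ± 0.10 SE; adjusted p = 0.276, 0.581 and 0.139).

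Rpl22 and Rpl22l1 were a paralog pair whose members both passed the test with the same hairpin, in opposite directions. Rpl22 binds structured RNA and is known to repress Rpl22l1. Rpl22 CPM were 104, 98.8, 100.1 and 106 in the empty vector libraries, 81.0, 81.0, 68.6 and 77.9 in those of the unmutated, 95.3, 91.5, 87.9 and 92.6 of the 2-mutation and 86.5, 72.9, 83.4 and 85.4 of the 5-mutation hairpin, and every hairpin library lay below every empty vector library. The log2 fold changes were -0.40 ± 0.06 SE, adjusted p = 3.96e-06, -0.15 ± 0.05 SE, adjusted p = 0.0198 and -0.32 ± 0.06 SE, adjusted p = 4.30e-05, of which the second was lost without replicate 4 of the empty vector or replicate 3 of the 2-mutation group. Rpl22l1 CPM were 31.9, 28.2, 27.7 and 29.1 in the empty vector libraries, 35.5, 37.8, 35.9 and 30.5 in those of the unmutated, 26.3, 24.2, 23.4 and 26.7 of the 2-mutation and 39.4, 28.4, 40.2 and 36.9 of the 5-mutation hairpin. It rose with the unmutated (0.26 ± 0.09 SE, adjusted p = 0.0313) and the 5-mutation hairpin (0.31 ± 0.09 SE, adjusted p = 0.00796), both with libraries that overlapped the empty vector. With the 2-mutation hairpin it was -0.21 ± 0.09 SE, adjusted p = 0.0527. The rise with the unmutated hairpin was lost with the length offset and without any of 6 single libraries.

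Fewer calls were made in the other pairs. Rps27l, a target of p53, fell with the 5-mutation hairpin (-0.28 ± 0.10 SE, adjusted p = 0.0206), a call that was lost without replicate 2 of that group or replicate 4 of the empty vector, and its parent Rps27 did not pass (-0.03, adjusted p = 0.766). Rpl7l1 did not pass the test with any hairpin (0.01 ± 0.06, 0.05 ± 0.06 and -0.05 ± 0.06 SE), whereas Rpl7 rose with the 2-mutation hairpin (0.33 ± 0.07 SE, adjusted p = 1.70e-04). Rpl3l and Rpl36al reached at most 0.389 and 1.01 CPM in any library, and neither passed the test against the empty vector. Rps19bp1, an activator of Sirt1, rose with the 2-mutation hairpin (0.59 ± 0.10 SE, adjusted p = 5.22e-05) with CPM of 13.1 to 16.8 with the empty vector and 20.4 to 22.4 with that hairpin.

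Between hairpins, more members were higher than lower with the 2-mutation hairpin against each of the others. Against the 5-mutation hairpin 51 of 84 members were higher and 8 lower in its libraries, where 32.3% and 33.6% of all genes tested were, with a median log2 fold change of 0.27 (17 and 22 with the family scaled level). Of the protein-coding genes, 39.7% were higher and 34.9% lower, beside 60.7% and 9.52% of members. Rpsa (1.14 ± 0.10 SE, adjusted p = 2.01e-08) and Rps19bp1 (0.68 ± 0.10 SE, adjusted p = 7.98e-06) were among the highest, and Rpl3 (-0.96 ± 0.05 SE, adjusted p = 5.98e-13), Rpl24 (-0.61 ± 0.21 SE, adjusted p = 0.0131) and Rpl22l1 (-0.52 ± 0.09 SE, adjusted p = 5.92e-05) were the lowest. Rpl24 rested on few counts, with 0.469 to 0.67 CPM in the 2-mutation and 0.765 to 0.918 in the 5-mutation libraries. In the unmutated against the 2-mutation hairpin 8 were higher and 34 lower, where 31.2% and 31.5% of all genes were, with a median of -0.17 (21 and 18 scaled level). Of the protein-coding genes, 33.6% were higher and 39.1% lower, so the members' 40.5% lower was near that share. Rpl3 (0.72), Rps25 (0.69) and Rpl35 (0.66) were the highest there, and Rpsa (-0.62), Rps19bp1 (-0.58) and Rpl39 (-0.57) the lowest. In the unmutated against the 5-mutation hairpin 24 were higher and 4 lower, where 26.8% and 28.5% of all genes were, with a median of 0.10 (14 and 16 scaled level). Of the protein-coding genes, 32.2% were higher and 32.7% lower, beside 28.6% and 4.76% of members. There Rpsa (0.52) and Rps27l (0.49) were the highest and Rpl5 (-0.27), Rpl3 (-0.24) and Rpl36a (-0.22) the lowest. The 24 became 15 without replicate 1 of the unmutated group and 40 without replicate 3 of the 5-mutation group, and the 4 became 7 without the former and 9 without replicate 2 of the 5-mutation group.

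Most members followed the family from library to library. The Pearson correlation of a member's log2 CPM with the median member over the 16 libraries, which share scaling and group, was highest for Rpl41 (0.98), Rpl11 (0.97) and Rps18 (0.97). It was below 0 for Rpl3 (-0.54), Rpl24 (-0.40), Rps10 (-0.23), Rpl22l1 (-0.18), Rps25 (-0.15), Rpl36al (-0.08), Rpl35 (-0.04) and Rpl5 (-0.02). Outside the family, the genes most like the median member were Polr2f, a subunit of the RNA polymerases (0.96), the prefoldin Pfdn5 (0.96), the ATP synthase subunit Atp5e (0.95), Mien1 (0.94) and the complex I subunit Ndufb7 (0.94). With the family scaled level, the genes farthest from it under the 2-mutation hairpin were Rpl35 (-1.0), Rpl3 (-0.97), Rps25 (-0.85), Rps23 (-0.49) and Rpl9 (-0.45) below and Rpsa (0.48), Rps19bp1 (0.39) and Rpl15 (0.31) above, all past the threshold.

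Proteins that sit on or are processed into the cytosolic ribosome under other symbols were measured too. Rack1, a scaffold of the small subunit whose messenger is also a TOP messenger, fell with the 2-mutation hairpin (-0.90 ± 0.07 SE, adjusted p = 2.28e-09), from 161 to 179 CPM with the empty vector to 83.9 to 94.7, and rose with the 5-mutation hairpin (0.27 ± 0.07 SE, adjusted p = 0.00346). Fau, the source of the small subunit protein eS30, rose with the unmutated (0.22 ± 0.08 SE, adjusted p = 0.0426) and the 2-mutation hairpin (0.27 ± 0.08 SE, adjusted p = 0.0106).

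Of 60 ribosome biogenesis genes, 48 rose and 4 fell with the 2-mutation hairpin (median log2 fold change 0.40), 34 rose and 5 fell with the 5-mutation hairpin (0.17), and 22 rose and 7 fell with the unmutated hairpin (0.08); the difference from the ribosomal proteins was not tested. The processome proteins Imp4 (1.35 ± 0.06 SE) and Pno1 (1.17 ± 0.06) rose most and the nucleolar protein Nolc1 (-1.22 ± 0.07) and Nip7 (-0.69 ± 0.06) fell most with the 2-mutation hairpin. With the 5-mutation hairpin Mdn1 (1.08 ± 0.05) and Rrp1b (0.60 ± 0.06) rose and Rrp12 (-1.09 ± 0.07) and Ddx21 (-0.64 ± 0.07) fell, and with the unmutated hairpin Rrp1b (0.54 ± 0.06) and Imp4 (0.50 ± 0.06) rose and Tsr1 (-0.40 ± 0.07) and Wdr12 (-0.31 ± 0.05) fell. Of 14 RNA polymerase I genes 11 rose and 1 fell with the 2-mutation hairpin, 4 and 3 with the 5-mutation hairpin, and 4 and 2 with the unmutated hairpin. Taf1d (1.18 ± 0.04) rose most, followed by Taf1c (0.71 ± 0.07), and Ubtf (-0.23 ± 0.04) fell with the 2-mutation hairpin. With the 5-mutation hairpin Polr1c (0.30 ± 0.08) rose most and Cd3eap (-0.57 ± 0.07) fell most, and with the unmutated hairpin Twistnb (0.37 ± 0.06) and Taf1b (-0.20 ± 0.05) did. Noncoding hosts of small nucleolar RNAs, many of them TOP transcripts, had 11 of 16 higher and 2 lower with the 2-mutation hairpin and 12 higher with the 5-mutation hairpin, where the other 4 did not pass, and 3 higher and 5 lower with the unmutated hairpin. Beside these stand, of all genes tested, 32.5% higher and 30.8% lower with the 2-mutation, 28.4% and 26.5% with the 5-mutation, and 20.8% and 19.5% with the unmutated hairpin. Zfas1 rose with the 2-mutation (1.22 ± 0.09) and the 5-mutation hairpin (0.80 ± 0.09) and was lower with the unmutated hairpin (-0.29 ± 0.10 SE, adjusted p = 0.0221). Snhg5 (1.08 ± 0.06) was next with the 2-mutation and Dancr (0.63 ± 0.11) with the 5-mutation hairpin. Snhg14, spliced from the imprinted Prader-Willi region, fell with the unmutated (-0.77 ± 0.11) and the 2-mutation hairpin (-0.68 ± 0.11), as did Snhg11 with the unmutated hairpin (-0.82 ± 0.13), while Snhg18 rose with it (0.95 ± 0.34).

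**Figure D5:**
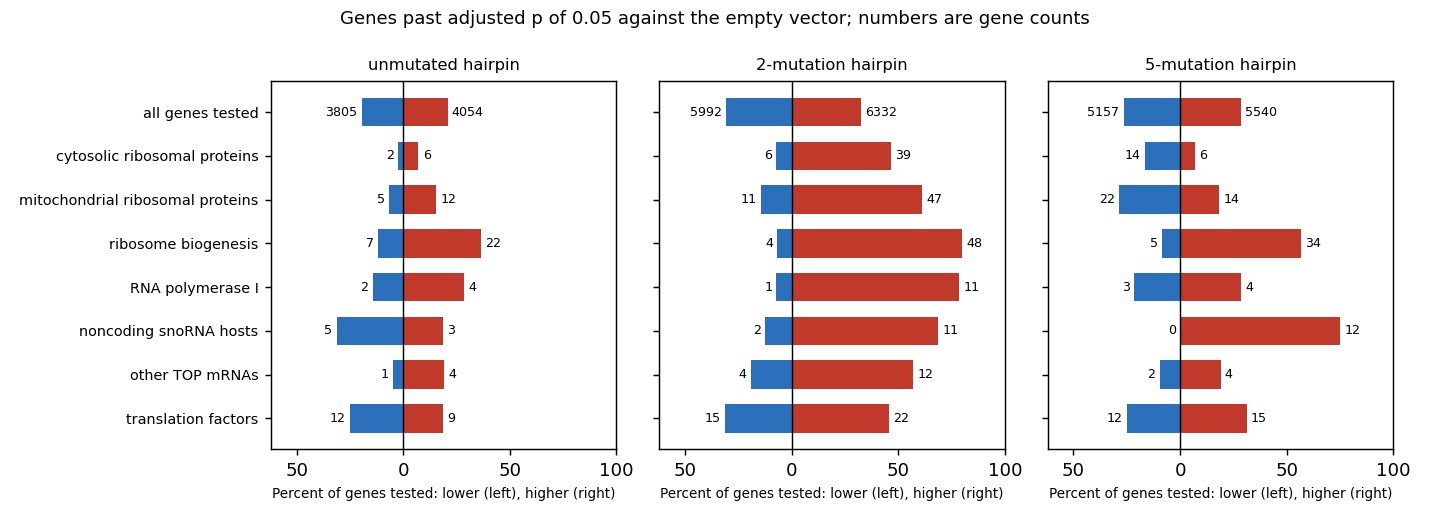
Percent of tested genes called lower (blue, left) and higher (red, right) against the empty vector for the 3 hairpins, with the number of genes at each bar. Cytosolic ribosomal proteins have 39 higher and 6 lower with the 2-mutation hairpin, and ribosome biogenesis has 48 and 4.

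Ribosomal proteins of the mitochondrion, encoded in the nucleus but made for a separate ribosome, had 47 of 77 higher and 11 lower with the 2-mutation hairpin (median 0.25), 14 higher and 22 lower with the 5-mutation hairpin (-0.08), and 12 and 5 with the unmutated hairpin (0.01). Beside these stand, of all protein-coding genes, 40.01% higher and 32.4% lower with the 2-mutation, 32.9% and 31.4% with the 5-mutation, and 25.3% and 23.4% with the unmutated hairpin, and the same shares apply to the other lists of protein-coding genes. Mrpl18 (0.97 ± 0.06 SE) rose most and Mrpl19 (-0.54 ± 0.08) fell most with the 2-mutation hairpin, and Mrps2 (-1.01 ± 0.05) fell most with the 5-mutation hairpin. Mrps35 (0.46 ± 0.07) rose most with the 5-mutation hairpin, and Mrps11 rose (0.38 ± 0.07) and Mrps27 fell (-0.33 ± 0.05) most with the unmutated hairpin. Of 48 translation factors, 22 rose and 15 fell with the 2-mutation hairpin, 15 and 12 with the 5-mutation hairpin, and 9 and 12 with the unmutated hairpin, which is near those shares for the mutated hairpins. The initiation factor Eif1ax fell in all 3 (-0.57 ± 0.04, -0.95 ± 0.04 and -1.0 ± 0.04), and Eif3j1 (-1.27 ± 0.05) fell most and Eif2s3x (0.79 ± 0.05) rose most with the 2-mutation hairpin. Eif4g2, a factor for cap-independent initiation, fell with the unmutated (-0.82 ± 0.04) and the 5-mutation hairpin (-0.88 ± 0.04), Eif3c rose with the unmutated hairpin (0.35 ± 0.05), and Eef2k, the kinase that slows elongation, rose with the 5-mutation hairpin (0.56 ± 0.05). Of 21 other TOP messengers, 12 rose and 4 fell with the 2-mutation hairpin, 4 and 2 with the 5-mutation hairpin, and 4 and 1 with the unmutated hairpin, with Vim (1.49 ± 0.19) and the nucleolar Npm1 (0.87 ± 0.05) highest and Rack1 and Eif4b (-0.32 ± 0.04) lowest with the 2-mutation hairpin. The poly(A)-binding protein Pabpc1 fell most with the 5-mutation hairpin (-0.51 ± 0.05), and the chaperonin Cct4 with the unmutated hairpin (-0.65 ± 0.06), where Vim rose (0.73 ± 0.19).

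Regulators of ribosomal protein messengers and genes changed in differing directions: of 19, 10 rose and 4 fell with the unmutated, 7 and 9 with the 2-mutation, and 7 and 4 with the 5-mutation hairpin. Mtor, the kinase upstream of TOP translation, fell in all 3 comparisons (-0.24 ± 0.03, -0.28 ± 0.03 and -0.29 ± 0.03 SE). Its partner Mlst8 fell with the unmutated and 2-mutation hairpins (-0.14 ± 0.05 and -0.28 ± 0.05), Rptor rose with the unmutated (0.12 ± 0.04) and fell with the 2-mutation hairpin (-0.16 ± 0.04), and the activator Rheb rose in all 3 (0.59 ± 0.05, 0.25 ± 0.05 and 0.24 ± 0.05). Eif4ebp1, the translation repressor that mTOR inactivates, rose with the unmutated (1.43 ± 0.13 SE, adjusted p = 8.04e-08) and fell with the 2-mutation (-0.98 ± 0.14 SE, adjusted p = 8.84e-06) and 5-mutation hairpin (-1.34 ± 0.15 SE, adjusted p = 3.13e-07). Rps6kb1, the kinase of the small subunit protein Rps6, fell with the unmutated (-1.05 ± 0.06 SE, adjusted p = 2.20e-12) and the 2-mutation hairpin (-1.18 ± 0.06 SE, adjusted p = 3.63e-14) and was -0.03 ± 0.05 SE, adjusted p = 0.635 with the 5-mutation hairpin. Larp1, which binds TOP caps, rose with the unmutated (0.39 ± 0.04) and fell with the 2-mutation (-0.24 ± 0.04) and 5-mutation hairpin (-0.11 ± 0.04). Myc, an activator of ribosome biogenesis genes, rose with the 2-mutation hairpin (0.63 ± 0.09 SE, adjusted p = 3.30e-06), as did its partner Max (0.89 ± 0.04), while their antagonist Mnt fell (-0.59 ± 0.05). Mxd1, another antagonist, rose with the 5-mutation hairpin (0.80 ± 0.07).

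The other regulators that passed had log2 fold changes as follows: Rps6kb2 (0.22, 0.68 and 0.49 in the order unmutated, 2-mutation and 5-mutation), Eif4ebp2 (0.41, -0.36 and 0.32), Larp4 (-0.90, 0.67 and, without a call, 0.08), Gabpa (0.13 with the 2-mutation hairpin and -0.44 with the 5-mutation hairpin), Mycl (0.30 with the 2-mutation hairpin), Mycn (0.28 with the 5-mutation hairpin), Tsc1 (0.15 with the unmutated and 0.17 with the 5-mutation hairpin) and Tsc2 (-0.15 with the 2-mutation hairpin). Trp53 rose with each hairpin (0.22 ± 0.08, 1.11 ± 0.08 and 0.54 ± 0.08 SE in the same order). Mdm4, a partner of Mdm2, rose with each as well (0.23 ± 0.05, 0.32 ± 0.05 and 0.19 ± 0.05). Mdm2, which p53 induces and which Rpl5 and Rpl11 bind, rose with the unmutated (0.24 ± 0.05) and 2-mutation hairpin (0.73 ± 0.05) and was -0.03 ± 0.05 SE, adjusted p = 0.603 with the 5-mutation hairpin. Rpl11 rose with the 2-mutation hairpin (0.24 ± 0.08 SE, adjusted p = 0.0173) and Rpl5 was -0.11 ± 0.06 SE, adjusted p = 0.124 there.

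Several of the members that moved against the rest of the family overlap other genes, and whether the counting used strand is not given in the sources used here. Exons of 19 members overlapped exons on the opposite strand, over more than 50% of their length in 2 (Rpl35 and Rpl23a). The exons of Rpl35 are covered to 66.2% by Wdr38, at 0.78 CPM with the empty vector, and Arpc5l, which rose with the 2-mutation hairpin (0.26). Those of Rps25 are covered to 24.8% by Trappc4, which rose (0.25), and Ccdc84 (-0.24, without a call). The span of Rpl3 overlaps that of Syngr1 on the other strand, without shared exons, and Syngr1 fell with the 2-mutation hairpin (-0.31). Rps23, Rpl9 and Rpl22, which also fell with the 2-mutation hairpin, shared no exonic bases with another gene on either strand. Whether overlap had a part in any of these changes was not tested. The share of 50-base stretches found elsewhere was 40.1% in Rpl35, 22.8% in Rps25, 67.1% in Rpl3, 33.1% in Rpsa and 23.2% in Rpl15, beside the family median of 34.8%. In their span 30 members hold 58 annotated small nucleolar RNAs, which guide changes to ribosomal RNA, and 17 of these had enough counts to be tested. Among the 17, 4 passed the test with the 2-mutation, 2 with the 5-mutation and 2 with the unmutated hairpin, each of them higher than with the empty vector. Of all genes tested, larger shares were higher: 32.5%, 28.4% and 20.8% in the same order. Gm26917 and Gm42418 collected 7.1% of all reads counted in the empty vector libraries, 8.74% in those of the unmutated, 12.5% of the 2-mutation and 9.97% of the 5-mutation hairpin, and leaving them out left 35 higher and 7 lower with the 2-mutation hairpin.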

How the data were processed

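Counts per gene for 16 libraries were deposited by the authors as 1 table of 55335 genes. The submitters' processing notes name alignment with STAR 2.7.2b to GRCm38.p6 after trimming (cutadapt 1.15 and Trim Galore 0.6.0), with bcl2fastq 2.20.0.422, featureCounts and edgeR also listed. How strand and multiply matching reads were handled, and which annotation release was used, is not given in the sources used here. Per the labels' protocols the libraries were directional and depleted of ribosomal RNA.

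Gene symbols and exons came from the GENCODE annotation of GRCm38.p6 (55154 of 55335 identifiers matched, 54587 with their version). The counts were fitted with edgeR 4.0.16 (R 4.3.3, TMM scaling, filterByExpr, robust quasi-likelihood) in 1 model of 16 libraries and 4 groups, and p-values were Benjamini-Hochberg adjusted over 19479 genes. The filter removed 35856 genes and no member. CPM are edgeR values with TMM scaling, and FPKM divide by exonic length. A pseudocount of 0.5 CPM was added wherever log2 CPM per library was taken. These uses were the heat map, the family's median level, deviations from group means, slopes on exonic length and the correlations. The pseudocount is not small beside the CPM of Rpl24, Rpl36al and Rpl3l, whose correlations with the median member depend on it. The script was tested on simulated counts. Replicates of a group differed with a chi-square of 3.25 to 21.9 per degree of freedom where counting noise gives about 1, so none was a library deposited more than once.

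Same-numbered libraries deviated together in the unmutated, 2-mutation and empty vector groups (lowest correlation 0.141). The main fit, which gave the calls and p-values, did not pair them, and the replicate number entered only in an alternative fit, as a block. In the 5-mutation group replicates 1, 2 and 4 correlated with the same number elsewhere at 0.130 or more and replicate 3 at -0.0306 to 0.0550, so the condition that every pair exceed 0.1 was not met. Replicate 3 of that group correlated with replicate 4 of the empty vector at 0.370 and of the 2-mutation group at 0.300. Replicate 4 of the 5-mutation group did so at 0.144 and 0.130. Named members were the 6 highest and 6 lowest called per hairpin against the empty vector, 3 and 3 between hairpins, the extremes of FPKM, the stalk genes, paralog pairs and genes with a printed sequence. Of each other list the 2 highest and 2 lowest called were eligible, and all regulators. Some genes that this takes in are not reported here by name, though they count in all totals. Rpl11 and Rps18 were named for their likeness to the median gene. Alternatives were other scaling, DESeq2 1.42.0, filters, a replicate block, a length offset and leaving out each library. The members and lists were chosen with earlier results of these data known.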

Additional observations from a re-analysis of the deposited data

Results flagged for a closer look

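In 2 of 152 groups of 4 libraries, over the 36 named genes, the family's share of counts and its median level, the lowest library stood apart from the other 3 by a gap over the range above Dixon's 95% critical value, and chance flags about 1 in 20 groups. Both were replicate 2 of the 5-mutation group. Rpl7 had 179.2 CPM there, against 224.9 to 230.3 in the other 3 libraries (gap over range 0.895). Rpl24 had 0.765 CPM there, against 0.893 to 0.918 (0.841). In that library 83 of the 84 ribosomal protein genes lay below their group mean.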

How the results depend on the processing

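Of 110 called values of the 36 named genes, 75 kept their call and direction under every alternative run. Other scalings, tests, filters and model terms ended 18 calls, leaving out a library ended 19, and neither turned a direction. Scaling to the family level ended 18 and turned 5 of the 110. The calls of Rpsa, Rpl3, Rpl35, Rps25 and Rpl15 against the empty vector named above were kept throughout. For counts over all 84 genes, the cause of a change was not tested.

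For the unmutated hairpin against the empty vector, 6 genes higher became 18 without the filter on low counts, 18 with only the libraries of both groups in the fit, 2 with the length offset and 1 to 15 when single libraries were left out. The 2 lower became 4 with DESeq2 size factors, 5 with DESeq2, 8 without the filter, 6 with protein-coding genes only, 5 with only both groups and 2 to 6 without single libraries. With the replicate number as a block there were 10 higher and 5 lower, and the block ended none of the 110 calls of named genes. In the 5-mutation group the same number went with correlated deviations in replicates 1, 2 and 4 but not 3, and the block gave 9 higher and 18 lower against the empty vector.

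For the 2-mutation hairpin against the empty vector, 6 lower became 10 with protein-coding genes only and 10 with only both groups, and single libraries left 34 to 46 higher and 5 to 8 lower. For the 5-mutation hairpin, 6 higher and 14 lower became 11 and 33 without the filter, and 4 to 16 higher and 10 to 33 lower without single libraries. Unmutated against 5-mutation, 24 higher became 37 without the filter, with 15 to 40 higher and 4 to 9 lower without single libraries. In 2-mutation against 5-mutation, 8 lower became 5 with the length offset.

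With the family scaled level, an alternative chosen after seeing the data, higher and lower counts were 4 and 7, 14 and 18, and 17 and 12 for the unmutated, 2-mutation and 5-mutation hairpin against the empty vector. They were 21 and 18 for unmutated against 2-mutation, 14 and 16 for unmutated against 5-mutation, and 17 and 22 for 2-mutation against 5-mutation. The near balance of higher and lower is built into this scaling. Among the named genes it turned the sign of 5 called values, and 5 values not called before passed with the opposite sign. These 10 were Rplp2 (-0.0002) and Rpl36a (-0.19) in the 2-mutation hairpin against the empty vector, Rplp2 (0.16) in unmutated against 2-mutation, and the following. In 2-mutation against 5-mutation they were Rpl22 (-0.13), Rpl36a (-0.26), Rpl13a (-0.0082), Rpl10 (-0.21), Rpl7 (-0.13), Rplp1 (-0.0215) and Rpl7l1 (-0.18). Values called in neither fit could turn sign too and are not listed. Depth limits Rpl3l, Rpl36al and Rpl24, at about 1 CPM or less.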
